A study of Homo sapiens with 6 samples.

Results

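RNA levels of 7 genes of the RAS, RAF, MEK and ERK kinase cascade were described in HMCB, a human melanoma cell line. The genes were chosen by symbol for their place in the cascade, and all 7 were found among the 26902 gene symbols of the table. They are the RAS genes NRAS and HRAS, the RAF genes ARAF and BRAF, the MEK genes MAP2K1 and MAP2K2, and the ERK gene MAPK3. Cells of the siAHCYL1 group (3 libraries) were given an siRNA against AHCYL1, and cells of the siNC group (3 libraries) a control siRNA. RNA was taken after 3 days in both groups. Cells of both groups are labelled as carrying the NRAS mutation Q61K, so the controls have the mutant cascade too. A gene's value sums all of its alleles, and mutant and normal NRAS transcripts were not separated. The study used 1 cell line here, and the replicates are called biological without separate cultures being named, so p-values measure the spread between these libraries, which may be partly technical.

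RAS proteins are small GTPases that switch on when they load GTP and switch off when they hydrolyse it. GTP-loaded RAS recruits RAF kinases to the membrane, RAF phosphorylates the MEK kinases, and MEK phosphorylates ERK, which acts on transcription factors and on further kinases. In melanoma the cascade is commonly driven by activating mutations of BRAF or NRAS, and a change of glutamine 61 of NRAS slows GTP hydrolysis. The cascade is set mostly by GTP loading and phosphorylation, which RNA levels do not measure.

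The levels are in TPM, a unit in which reads are set against the length of a gene's transcripts and against the library as a whole, so levels of different genes can be compared. All libraries have the same sum in this unit, so sequencing depth is unknown and no counting interval was computed. The siRNA target AHCYL1 averaged 11.9 ± 1.39 TPM in siAHCYL1 and 138 ± 10.2 TPM in siNC (SD, n = 3 each; log2 fold change -3.44, limma adjusted p = 5.64e-08). The melanocyte lineage factor SOX10 stood at 1009 ± 16.9 TPM in siAHCYL1 and 1037 ± 12.4 TPM in siNC, while the pigment enzyme gene TYR was listed at 0 in all 6 libraries and MLANA averaged 0.527 TPM in siAHCYL1 and 0.203 TPM in siNC. Of 8 melanocyte lineage markers tested 4 rose and 2 fell, a share of 75.0% against 51.6% of all genes tested. TYRP1 rose (mean 3.76 TPM in siAHCYL1 and 1.587 TPM in siNC), as did PMEL (1.827 and 0.8767 TPM). S100B (28.98 TPM in siAHCYL1 and 10.72 TPM in siNC) and ERBB3 (290.7 and 227.0 TPM) rose too. DCT, a pigment enzyme gene, fell, with 0.337 ± 0.250 TPM in siAHCYL1 and 11.4 ± 0.584 TPM in siNC. PAX3 fell as well (16.94 TPM in siAHCYL1 and 23.31 TPM in siNC). The summed level of the list ran from 1339 to 1402 TPM in siAHCYL1 and from 1306 to 1342 TPM in siNC. Of the markers of other cell types, 3 of 8 keratinocyte and epithelial, 2 of 7 fibroblast, 2 of 6 immune and blood cell and 1 of 5 endothelial genes were high enough to test. KRT5, CDH1, PDGFRA, FAP, THY1, CD3E, HBB and VWF were listed at 0 in all 6 libraries. Summed epithelial markers ran from 29.6 to 33.5 TPM in siAHCYL1 and from 35.9 to 46.5 TPM in siNC, and of the tested genes KRT18 and CLDN4 fell and KRT8 rose. Summed fibroblast markers ran from 26.1 to 32.4 TPM in siAHCYL1 and from 15.3 to 17.9 TPM in siNC, where LUM rose and COL1A1 fell (0.493 ± 0.250 TPM in siAHCYL1 and 2.18 ± 0.470 TPM in siNC). Summed immune and blood cell markers ran from 11.4 to 17.7 TPM in siAHCYL1 and from 14.5 to 28.5 TPM in siNC. In that list the leukocyte gene PTPRC rose (8.55 ± 1.90 TPM in siAHCYL1 and 3.45 ± 0.238 TPM in siNC) and the haemoglobin gene HBA1 fell (6.35 ± 2.69 TPM in siAHCYL1 and 18.0 ± 7.33 TPM in siNC). Summed endothelial markers, mostly KDR, ran from 6.29 to 7.19 TPM in siAHCYL1 and from 8.81 to 11.2 TPM in siNC. Their part in the results was not tested.

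The promoters of NRAS and HRAS are shown because these were the RAS genes that moved in opposite directions. The windows of 300 bases hold a start annotated in RefSeq (GRCh38.p14) and mostly the bases before it, on the strand of the gene. All 7 genes matched the RefSeq table by symbol. Capitals mark GGGCGG or its reverse complement CCGCCC, the core of the GC box. NRAS lies at chr1:114716722-114717021 on the minus strand and holds 3 such matches, and HRAS lies at chr11:535527-535826 on the minus strand and holds 5.
NRAS: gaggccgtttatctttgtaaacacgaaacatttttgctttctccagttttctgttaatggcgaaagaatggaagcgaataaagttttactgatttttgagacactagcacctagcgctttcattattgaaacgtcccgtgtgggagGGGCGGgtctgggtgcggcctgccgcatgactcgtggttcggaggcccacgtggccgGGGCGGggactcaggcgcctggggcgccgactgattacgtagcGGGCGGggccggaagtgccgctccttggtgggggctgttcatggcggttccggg
HRAS: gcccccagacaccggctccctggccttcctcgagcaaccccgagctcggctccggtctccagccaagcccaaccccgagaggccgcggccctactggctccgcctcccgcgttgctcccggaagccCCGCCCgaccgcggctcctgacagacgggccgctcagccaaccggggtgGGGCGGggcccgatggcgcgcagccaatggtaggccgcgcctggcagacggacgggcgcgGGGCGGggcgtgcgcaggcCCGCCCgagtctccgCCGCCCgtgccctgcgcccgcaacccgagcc
The NRAS window was 57.3% G and C and the HRAS window 78.0%. Of 35116 promoter windows of the same length, 45.0% hold GGGCGG on either strand, and TATAAA, found in 11.5% of them, was in neither window. The BRAF and ARAF windows held no GGGCGG on either strand, and the MAPK3 window held 8. These matches describe letters and are not sites.

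The gene bodies, in GRCh38 coordinates of GENCODE release 29, are NRAS at chr1:114704469-114716894, HRAS at chr11:532242-537287, ARAF at chrX:47561100-47571920, BRAF at chr7:140719327-140924928, MAP2K1 at chr15:66386817-66492312, MAP2K2 at chr19:4090321-4124129 and MAPK3 at chr16:30114105-30123506. The promoter windows of HRAS, BRAF and MAPK3 lie wholly inside these bodies, so the RefSeq starts used for them differ from the GENCODE gene starts. Each gene has 1 value per library, with no split by transcript. NRAS and HRAS differ in their main annotated transcripts. That of NRAS is 4449 bases long with 38.4% G and C, and that of HRAS 1151 bases with 65.2%.

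MAP2K2 was the most abundant of the 7 genes and BRAF the least abundant in both groups. In order of mean level the siAHCYL1 libraries had MAP2K2 (211 TPM), NRAS (118 TPM), ARAF (77.7 TPM), MAPK3 (75.9 TPM), MAP2K1 (58.6 TPM), HRAS (41.0 TPM) and BRAF (18.3 TPM). The siNC libraries had the same order, with MAP2K2 at 225 TPM, NRAS at 90.0, ARAF at 71.1, MAPK3 at 68.2, MAP2K1 at 61.3, HRAS at 52.2 and BRAF at 14.7 TPM. The ranges of ARAF and MAPK3 overlapped in both groups, so these neighbours did not differ beyond their spread, and no other neighbours in the order overlapped in either group. The mean level of BRAF over all 6 libraries was above that of 40.2% of the genes tested, and that of MAP2K2 above 94.4%.

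**Figure D1:**
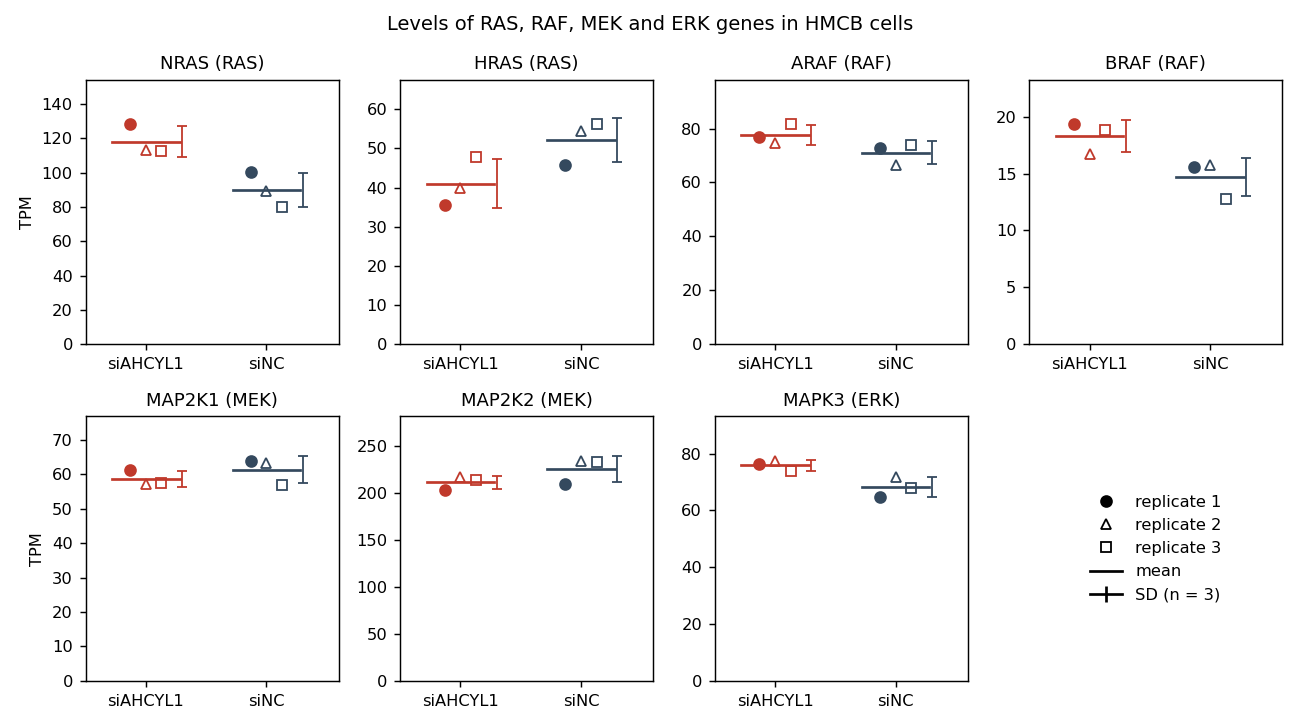
Level of each of the 7 genes in TPM (vertical axes, each starting at 0) in the 3 siAHCYL1 and 3 siNC libraries, with the mean as a line and the SD as a bar. All 3 siAHCYL1 libraries lie above all 3 siNC libraries for NRAS, ARAF, BRAF and MAPK3, and the groups overlap for HRAS, MAP2K1 and MAP2K2.

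Of the 7 genes, NRAS and BRAF rose and HRAS fell after the AHCYL1 siRNA, while ARAF, both MEK genes and MAPK3 did not pass the test. The test was limma on log2(TPM + 1) over 13266 genes, with a call at a Benjamini-Hochberg adjusted p under 0.05. That rule called 51.6% of all genes tested, 30.4% higher and 21.2% lower, against 3 of the 7 described here (42.9%), 2 higher and 1 lower. Higher calls were 58.9% of all calls, and 48.1% of them after quantile normalization. The share of the 7 is thus near that of all genes. The median log2 fold change was 0.13 over the 7 and 0.06 over all genes tested. Every member changed by less than 0.40 on the log2 scale, and 40.8% of the genes tested had a larger absolute change than NRAS, the member that changed most. The groups did not overlap in 4 of the 7, NRAS, ARAF, BRAF and MAPK3, all higher. Of all genes tested 59.2% did not overlap, which divides into 34.7% with siAHCYL1 higher and 24.5% with siAHCYL1 lower. Fewer cells of a kind and less RNA per cell cannot be told apart in these bulk samples.

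NRAS, the GTPase mutated in these cells, rose. It had 128.42, 113.07 and 112.71 TPM in siAHCYL1, against 100.24, 89.50 and 80.11 TPM in siNC. Every siAHCYL1 library was above every siNC library, and replicate 1 was the highest of its group in both. The mean was 118 ± 8.97 TPM in siAHCYL1 and 90.0 ± 10.1 TPM in siNC (SD, n = 3 each), 131% of the control level. The log2 fold change was 0.39 (SE 0.092, 95% interval 0.18 to 0.60, limma adjusted p = 0.00626). It passed in each of the 15 other fits, with values from 0.28 to 0.47, and without replicate 1 of both groups it was 0.41 (limma adjusted p = 0.00186).

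HRAS, the cellular counterpart of the oncogene of Harvey sarcoma virus, fell. It had 35.43, 39.77 and 47.81 TPM in siAHCYL1, against 45.73, 54.44 and 56.27 TPM in siNC. The groups overlapped, since siAHCYL1 replicate 3 was above siNC replicate 1, and replicate 1 was the lowest of its group in both. The mean was 41.0 ± 6.28 TPM in siAHCYL1 and 52.2 ± 5.63 TPM in siNC, 78.6% of the control level. The log2 fold change was -0.34 (SE 0.12, 95% interval -0.61 to -0.07, limma adjusted p = 0.0367). The call was lost without siNC replicate 2 (limma adjusted p = 0.115), siNC replicate 3 (0.109), siAHCYL1 replicate 1 (0.105) or siAHCYL1 replicate 2 (0.091), with no filter on low values (0.0704) and with no intensity trend (0.0657). It held without replicate 1 of both groups (-0.34, limma adjusted p = 0.0186). The direction was the same in all of these fits.

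Replicate 1 moved NRAS and HRAS in opposite directions in both groups. On the log2 scale NRAS in replicate 1 was 0.18 above the mean of replicates 2 and 3 in siAHCYL1 and 0.24 above it in siNC. HRAS in replicate 1 was -0.29 from that mean in siAHCYL1 and -0.27 in siNC. After correction of each library for trends with GC content and with the length of transcripts, an alternative chosen after seeing the data, NRAS had a log2 fold change of 0.45 (limma adjusted p = 0.000201) and HRAS of -0.40 (limma adjusted p = 0.00157).

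Together NRAS and HRAS transcripts summed to 164, 153 and 161 TPM in siAHCYL1, against 146, 144 and 136 TPM in siNC. The ratio of NRAS to HRAS, which does not depend on how a library is scaled, was 3.63, 2.84 and 2.36 in siAHCYL1, against 2.19, 1.64 and 1.42 in siNC. The groups did not overlap. The difference of the mean log2 ratio was 0.75 (1.53 ± 0.31 in siAHCYL1 and 0.79 ± 0.32 in siNC; two-sided exact permutation p = 0.1, the smallest that 3 against 3 allows, and 0.3 adjusted over the 3 ratios compared). NRAS made up between 70.2% and 78.4% of this sum in siAHCYL1 and between 58.7% and 68.7% in siNC.

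**Figure D2:**
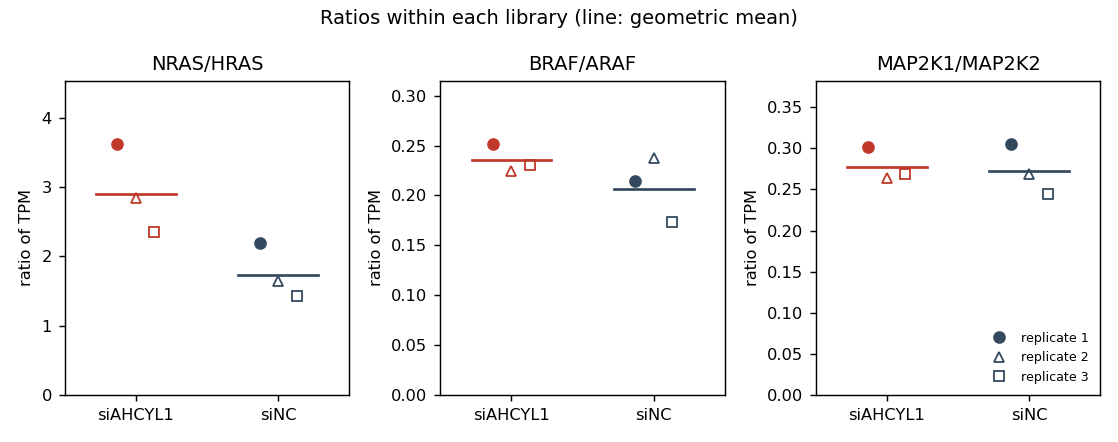
Ratio of the TPM of the 2 genes of a tier within each library (vertical axes, each starting at 0), with the geometric mean of a group as a line. The NRAS to HRAS ratio runs from 2.36 to 3.63 in siAHCYL1 and from 1.42 to 2.19 in siNC, and the other 2 ratios overlap between the groups.

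BRAF, the RAF kinase most often mutated in melanoma, was higher after the AHCYL1 siRNA, close to the threshold. It had 19.37, 16.74 and 18.80 TPM in siAHCYL1, against 15.61, 15.78 and 12.80 TPM in siNC. The groups did not overlap, with siAHCYL1 replicate 2 next to siNC replicate 2. The mean was 18.3 ± 1.38 TPM in siAHCYL1 and 14.7 ± 1.67 TPM in siNC, and the log2 fold change was 0.30 (SE 0.11, 95% interval 0.05 to 0.55, limma adjusted p = 0.047). The call was lost when siNC replicate 1 (limma adjusted p = 0.0513), 2 (0.0604) or 3 (0.157) or siAHCYL1 replicate 1 (0.103) or 3 (0.116) was left out, and without replicate 1 of both groups (0.30, 0.0772). It was also lost under median-of-ratios scaling (0.24, limma adjusted p = 0.0682) and quantile normalization (0.21, 0.103), with no filter (0.0753) and with no intensity trend (0.0507). The call held after the correction for length and GC content, chosen after seeing the data (0.36, limma adjusted p = 0.0072). Annotated exons of BRAF share 1239 bases with those of NDUFB2, a respiratory complex I gene on the opposite strand, though the main transcripts of the 2 genes share 0. These libraries do not keep strand. NDUFB2 rose, with 677 ± 85.7 TPM in siAHCYL1 and 524 ± 42.1 TPM in siNC (log2 fold change 0.36, limma adjusted p = 0.012), and its part in the BRAF value was not tested.

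ARAF, the RAF kinase encoded on the X chromosome, had 76.96, 74.48 and 81.74 TPM in siAHCYL1, against 72.85, 66.36 and 74.01 TPM in siNC. The groups lay side by side without overlapping. The log2 fold change of 0.13 did not pass (SE 0.072, 95% interval -0.03 to 0.29, limma adjusted p = 0.167), in this fit or in any of the 15 others. It was 0.064 under median-of-ratios scaling, 0.024 under quantile normalization, 0.078 after the correction for length and GC content and 0.080 without siNC replicate 2. The ratio of BRAF to ARAF was 0.252, 0.225 and 0.230 in siAHCYL1, against 0.214, 0.238 and 0.173 in siNC, and the groups overlapped. The difference of the mean log2 ratio was 0.19 (two-sided exact permutation p = 0.3, 0.45 adjusted over the 3 ratios). Without siNC replicate 3 it was 0.059, and without siNC replicate 2 it was 0.29. Exons of ARAF share 23 bases with SYN1, a neuronal gene on the opposite strand with 0.800 ± 0.185 TPM in siAHCYL1 and 1.28 ± 0.162 TPM in siNC. Processed pseudogenes of ARAF and MAP2K1 and a pseudogene of BRAF are annotated, no value for them was used here, and how reads were shared with them is not given in the sources used here.

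MAP2K1 and MAP2K2 encode MEK1 and MEK2, the kinases that phosphorylate ERK, and neither passed the test. MAP2K1 had 61.27, 57.11 and 57.53 TPM in siAHCYL1, against 63.95, 63.12 and 56.88 TPM in siNC. MAP2K2 had 202.97, 216.55 and 214.01 TPM in siAHCYL1, against 209.36, 234.40 and 232.46 TPM in siNC. The groups overlapped for both genes. The log2 fold change was -0.06 for MAP2K1 (SE 0.074, 95% interval -0.23 to 0.10, limma adjusted p = 0.509) and -0.09 for MAP2K2 (SE 0.065, 95% interval -0.24 to 0.05, limma adjusted p = 0.264). MAP2K1 passed under quantile normalization alone (-0.16, limma adjusted p = 0.043). Under median-of-ratios scaling MAP2K1 had -0.13 and MAP2K2 -0.16, and under quantile normalization MAP2K2 had -0.16. Their ratio was nearly level, with 0.302, 0.264 and 0.269 in siAHCYL1 and 0.306, 0.269 and 0.245 in siNC. The difference of the mean log2 ratio was 0.03 (two-sided exact permutation p = 1, also adjusted). It changed sign without siAHCYL1 replicate 1 (-0.03) and without siNC replicate 3 (-0.05). Annotated exons of MAP2K1 share 216 bases with SNAPC5, a gene on the opposite strand that rose (17.1 ± 3.01 TPM in siAHCYL1 and 5.38 ± 0.417 TPM in siNC), and the main transcripts share 0. An annotated antisense gene, for which no value was used here, shares 432 bases with MAP2K1 exons. The part of either in the MAP2K1 value was not tested.

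MAPK3 encodes ERK1, a terminal kinase of the cascade. It had 76.44, 77.58 and 73.78 TPM in siAHCYL1, against 64.74, 71.94 and 67.92 TPM in siNC. Every siAHCYL1 library was above every siNC library, by less than 2 TPM between the closest. The log2 fold change of 0.15 did not pass (SE 0.068, 95% interval 0.00 to 0.31, limma adjusted p = 0.0852, unadjusted p = 0.0489). After quantile normalization it was 0.053, and after scaling by median of ratios 0.090.

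**Figure D3:**
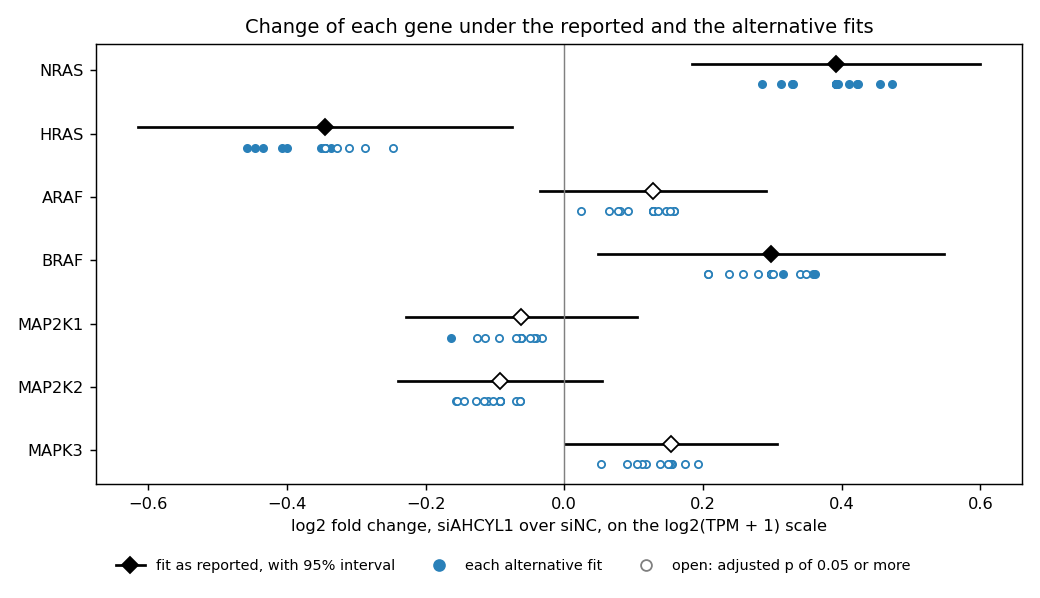
Log2 fold change of each of the 7 genes, siAHCYL1 over siNC, on the log2(TPM + 1) scale (horizontal axis). Diamonds with 95% intervals are the values reported, and circles are the alternative fits, filled where the adjusted p was under 0.05. All circles of NRAS are filled and lie between 0.28 and 0.47, while those of HRAS and BRAF are partly open.

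The profiles most like those of the members were found by Pearson's r of log2(TPM + 1) over the 6 libraries, among 10876 genes with a mean of at least 5 TPM. For NRAS these were FAM126A (r = 0.9997), PDE4DIP (0.9992) and SUPT16H (0.9989), all 3 of which rose. For HRAS they were MCAT (0.988), FAM229A (0.983) and C2CD4C (0.982), of which C2CD4C fell. For BRAF they were BLOC1S3 (0.993), ARHGAP19-SLIT1 (0.992) and ESD (0.988), of which ARHGAP19-SLIT1 rose. For MAPK3 they were NR2C2AP (0.994), IFT140 (0.990) and UPP1 (0.989), all 3 of which rose. For ARAF the nearest was PPP1CA (0.993), for MAP2K1 CLDN12 (0.987) and for MAP2K2 SH3BP5 (0.985), and none of these 3 passed the test. Among the members themselves r was -0.92 between NRAS and HRAS and 0.93 between NRAS and BRAF. MAP2K2 had an r of -0.87 with NRAS and 0.86 with HRAS. With 6 libraries in 2 groups such values are descriptions, and all of them share the same libraries.

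Genes around the cascade were described by role, from lists with 103 genes tested, of which 48 passed (46.6%), 28 higher and 20 lower, against 51.6% of all genes tested. The median log2 fold change over the 103 was 0.07.

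Of 12 tested GTPases of the RAS subfamily, 5 rose and 1 fell (median log2 fold change 0.17). RRAS, a RAS-related GTPase tied to integrin signalling, rose to 73.9 ± 5.73 TPM in siAHCYL1, against 25.0 ± 4.41 TPM in siNC (1.54, limma adjusted p = 1.18e-05). RIT1, which like RAS can feed the MAPK cascade, rose to 29.2 ± 3.48 TPM in siAHCYL1, against 14.1 ± 1.28 TPM in siNC (1.00, limma adjusted p = 8.21e-05), and RAP2C rose as well (0.77). RAP1B, a GTPase of cell adhesion, fell (-0.29, limma adjusted p = 0.0334), and this call was lost without siNC replicate 1 (0.0988), siNC replicate 2 (0.0884), siAHCYL1 replicate 2 (0.127) or siAHCYL1 replicate 3 (0.0835), with no filter (0.0657) and with no intensity trend (0.0731). Without siAHCYL1 replicate 1, 2 genes of the list fell.

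Upstream of RAS, the exchange factors that load GTP and the proteins that speed its hydrolysis held changes in both directions. Of 10 tested adaptors and exchange factors 3 rose and 2 fell (median 0.18). SOS1, the main exchange factor downstream of receptor kinases, rose to 38.4 ± 6.02 TPM in siAHCYL1, against 27.2 ± 4.04 TPM in siNC (0.48, limma adjusted p = 0.0132). Its paralog SOS2 rose (0.38, limma adjusted p = 0.032) and lost the call without siNC replicate 3 (0.105), siAHCYL1 replicate 1 (0.0909) or siAHCYL1 replicate 2 (0.0545) and with no filter (0.0621). The adaptor SHC2 fell (-0.51, limma adjusted p = 0.00928), and GRB2, which brings SOS proteins to receptors, had 77.2 ± 4.27 TPM in siAHCYL1 and 77.5 ± 4.79 TPM in siNC (-0.01, 95% interval -0.17 to 0.16, limma adjusted p = 0.959). The number that rose dropped to 1 without siNC replicate 3 or siAHCYL1 replicate 2, and the number that fell dropped to 1 with any single library left out.

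Of 9 tested GTPase-activating proteins of RAS, 4 rose and 1 fell (median 0.22). RASA3 rose to 91.2 ± 1.62 TPM in siAHCYL1, against 46.7 ± 1.04 TPM in siNC (0.95, limma adjusted p = 4.48e-06), and RASAL2 rose (0.69, limma adjusted p = 0.000901). DAB2IP fell to 41.3 ± 0.604 TPM in siAHCYL1, against 64.9 ± 0.805 TPM in siNC (-0.64, limma adjusted p = 4.75e-05). NF1, the GTPase-activating protein lost in neurofibromatosis, had 34.12, 25.62 and 25.34 TPM in siAHCYL1, against 29.14, 30.02 and 26.22 TPM in siNC. Its log2 fold change was -0.02 (95% interval -0.29 to 0.26, limma adjusted p = 0.923), and the groups overlapped.

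Of 9 genes that modify and move RAS proteins, 2 rose and 3 fell (median -0.01), 1 in place of 2 rising without siNC replicate 2. ICMT, the enzyme that methylates the carboxyl end of RAS proteins, rose to 160 ± 1.41 TPM in siAHCYL1, against 94.5 ± 1.72 TPM in siNC (0.76, limma adjusted p = 8.73e-06). FNTB, a subunit of the farnesyltransferase that anchors RAS, fell (20.6 ± 2.10 TPM in siAHCYL1 and 29.5 ± 0.401 TPM in siNC, -0.50, limma adjusted p = 0.0017). RCE1, the protease that acts between these steps, fell too (23.5 ± 2.72 TPM in siAHCYL1 and 34.9 ± 3.28 TPM in siNC, -0.55, limma adjusted p = 0.00211). The calls of these 3 genes held in all 15 other fits.

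Of 17 tested RAF regulators 2 rose and 3 fell (median -0.03), 1 in place of 3 falling without siNC replicate 1 or siAHCYL1 replicate 2. The 14-3-3 genes, whose proteins bind phosphorylated RAF, went both ways. YWHAG rose to 609 ± 26.5 TPM in siAHCYL1, against 427 ± 18.1 TPM in siNC (0.51), and YWHAH rose (0.49), while YWHAQ fell to 555 ± 30.1 TPM in siAHCYL1, against 706 ± 53.0 TPM in siNC (-0.34, limma adjusted p = 0.00302). SHOC2, a scaffold of the phosphatase that helps activate RAF, had 21.9 ± 4.74 TPM in siAHCYL1 and 20.3 ± 2.22 TPM in siNC (0.09, 95% interval -0.24 to 0.42, limma adjusted p = 0.652). Of 8 MEK and ERK partners 2 rose and 3 fell (median -0.05). The scaffold IQGAP1 rose to 190 ± 23.0 TPM in siAHCYL1, against 117 ± 6.52 TPM in siNC (0.68, limma adjusted p = 0.00023). PAQR3, a Golgi protein that holds RAF back, fell (-0.69, limma adjusted p = 0.0019), and the arrestin ARRB2 fell (-0.34, limma adjusted p = 0.012), a call lost without siNC replicate 2 (0.0566). In that list 1 gene rose when siNC replicate 1 or 2 or any siAHCYL1 library was left out, and 1 fell without siNC replicate 2.

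Downstream of ERK, 3 of 8 kinases that it activates rose and 1 fell (median 0.17). RPS6KA2, which encodes the ribosomal S6 kinase RSK3, had 37.22, 38.07 and 37.69 TPM in siAHCYL1, against 11.23, 11.60 and 10.76 TPM in siNC (1.67, SE 0.081, limma adjusted p = 9.05e-07). MKNK2, a kinase of the translation factor eIF4E, rose to 71.5 ± 4.04 TPM in siAHCYL1, against 31.1 ± 1.54 TPM in siNC (1.17, limma adjusted p = 4.03e-06), and MKNK1 rose (0.48, limma adjusted p = 0.00174). RPS6KA6 fell at a low level (1.29 ± 0.217 TPM in siAHCYL1 and 2.22 ± 0.352 TPM in siNC, limma adjusted p = 0.0369). That call was lost without siNC replicate 1 (0.114), siNC replicate 2 (0.0774), siAHCYL1 replicate 1 (0.0753) or siAHCYL1 replicate 3 (0.106), and without replicate 1 of both groups (0.165).

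Of 13 tested RAS effectors other than RAF 3 rose and 3 fell (median -0.12), 1 in place of 3 falling without siAHCYL1 replicate 2. RASSF5, a RAS-binding tumour suppressor also called NORE1, had 7.44, 5.65 and 5.86 TPM in siAHCYL1, against 29.25, 32.37 and 30.57 TPM in siNC (-2.12, SE 0.12, limma adjusted p = 1.48e-06). Every siAHCYL1 library was far below every siNC library. MLLT4, also called AFDN, an adhesion scaffold that binds RAS, rose to 119.4 ± 14.97 TPM in siAHCYL1, against 65.5 ± 0.338 TPM in siNC (0.85), and RGL2, an exchange factor for RAL GTPases, rose (0.41, limma adjusted p = 0.00146).

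In the parallel JNK, p38 and ERK5 modules 4 of 17 tested genes rose and 3 fell (median 0.15), 1 in place of 3 falling without siNC replicate 2. MAP2K6, the MEK-like activator of p38, had 5.87, 4.74 and 5.22 TPM in siAHCYL1, against 23.24, 26.51 and 23.86 TPM in siNC (-2.03, SE 0.11, limma adjusted p = 1.5e-06). MAPK11, which encodes p38 beta, rose to 43.5 ± 3.28 TPM in siAHCYL1, against 22.7 ± 2.27 TPM in siNC (0.91, limma adjusted p = 6.86e-05), and MAP3K2, an activator of the ERK5 module, rose (0.81, limma adjusted p = 0.000318).

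**Figure D4:**
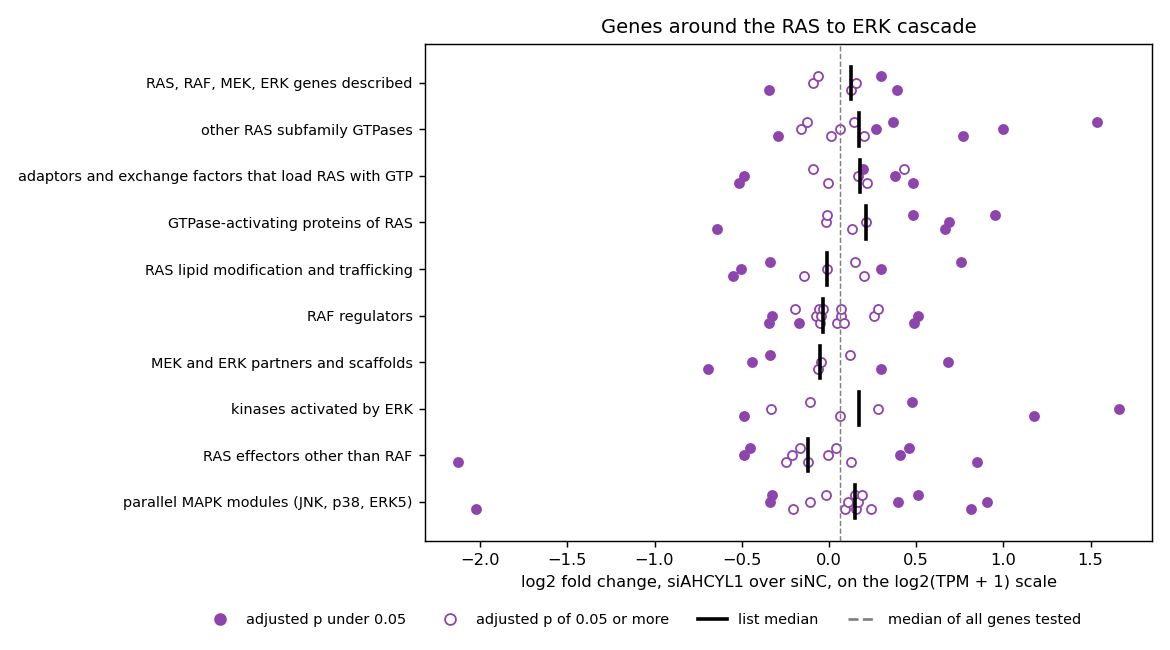
Log2 fold change, siAHCYL1 over siNC, on the log2(TPM + 1) scale (horizontal axis) of the tested genes of each list (rows), filled where the adjusted p was under 0.05, with the list median as a bar and the median of all genes tested as a dashed line. The 7 members lie between -0.34 and 0.39, while RASSF5 and MAP2K6 lie near -2 and RPS6KA2 and RRAS above 1.5.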

How the data were processed

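The authors deposited 1 table of TPM, with 1 row per gene symbol and 6 library columns. STAR, RSEM and GRCh38 are named, per the submitters' processing notes. Their roles and versions and the gene annotation were not given in the sources used here. Per the labels' protocols, libraries were non-directional. Columns were matched to samples by prefix (nc for siNC, si for the other group, siAHCYL1) and replicate number.

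From these values, log2(TPM + 1) was fitted with limma 3.58.1 (R 4.3.3; moderated, intensity trend, two-sided, Benjamini-Hochberg) with group as the only term. A gene was tested where 3 or more libraries reached 1 TPM. Ratios of members were compared with exact permutation tests. The fit was tested on simulated data with independent noise in each library. The changes added there were larger than those of the members, so it does not show how the fit does on theirs. Lengths, GC content and coordinates come from GENCODE release 29, matched by symbol for 23865 of 26902 rows.

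Members and lists were chosen with earlier results of these data known. Named besides the members were AHCYL1, up to 3 changed genes per list by adjusted p, the largest change against a list's direction, SOS1, NF1, GRB2 and SHOC2 with any result, and the nearest profiles of each member. Some genes of the rule and lists are not reported here. Overlapping genes, the melanocyte lineage markers that rose or fell and the tested markers of other cell types were added after their values were seen. Other settings tried were no filter, a filter at 5 TPM, a pseudocount of 0.1, quantile normalization, scaling by median of ratios, a replicate block, robust moderation with no trend, and leaving out single libraries. Chosen after seeing the data were leaving out replicate 1 of both groups and a correction for length and GC content, over the 95.2% of tested genes with both values.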

Additional observations from a re-analysis of the deposited data

How the results depend on the processing

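Of the 7 genes, NRAS kept its call in all 15 alternative fits, ARAF and MAP2K2 passed in none, and no fit reversed any member's direction. Members that rose numbered 2, but 1 with no filter, median-of-ratios scaling, quantile normalization, no intensity trend, or without replicate 1 of both groups, 3 with a replicate block, and 1 to 2 with 1 library left out. Members that fell numbered 1, but 0 with no filter or no trend, 2 under quantile normalization, and 0 to 1 with 1 library left out. HRAS lost its call with an equal fold change with no filter and with no trend (-0.34 in both, adjusted p = 0.0704 and 0.0657), and leaving out single libraries gave values between -0.46 and -0.25. BRAF lost its call with a fold change as large with no filter (0.30, adjusted p = 0.0753), no trend (0.30, 0.0507) and without replicate 1 of both groups (0.30), and with a smaller one under median-of-ratios scaling (0.24) and quantile normalization (0.21), and leaving out single libraries gave values between 0.21 and 0.36. MAP2K1 passed under quantile normalization (-0.16). The log2 ratio difference lay between -0.047 and 0.11 for MAP2K1 to MAP2K2, between 0.059 and 0.29 for BRAF to ARAF and between 0.59 and 0.92 for NRAS to HRAS when single libraries were left out. For these changes the cause was not tested.

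Whether replicate numbers pair the samples was not settled by the check used. The deviations of libraries with the same number correlated at 0.233, 0.00092 and 0.154, and those with different numbers between -0.256 and 0.153. Replicate 2 of siNC was about as near to replicate 1 of siAHCYL1 (0.0088) as to replicate 2 (0.00092). A fit with replicate as a block called 7919 genes in place of 6844, and MAPK3 passed (0.15, adjusted p = 0.0353). Block fits left the calls of the other 6 members as they were (limma adjusted p = 0.00248 for HRAS and 0.0387 for BRAF). For the ratios the paired exact test gave p = 0.25, 0.5 and 1, and 0.25 is the smallest it allows. Across all fits the count of changed genes ran from 5672 to 7919, and the share of higher calls was 58.9%, with 50.8% after scaling by median of ratios and 48.1% after quantile normalization; these scalings moved the median log2 fold change of all genes to 0.0045 and -0.014 in place of 0.063.

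Genes with no call changed sign in some fits. With single libraries left out GRB2 lay between -0.051 and 0.037, NF1 between -0.15 and 0.056 and SHOC2 between -0.076 and 0.20. NF1 had 0.020 after the correction for length and GC content, and SHOC2 had -0.010 under quantile normalization and -0.0053 without replicate 1 of both groups. Across settings the lists' counts that moved by over 1.5 times were 0 to 3 falling RAS subfamily GTPases (1 as reported), 1 to 4 rising (3) and 1 to 2 falling (2) adaptors, 1 to 3 rising lipid modification genes (2), 1 to 4 falling RAF regulators (3), 1 to 2 rising (2) and 1 to 3 falling (3) MEK and ERK partners, 0 to 2 falling ERK-activated kinases (1), 1 to 6 falling RAS effectors (3) and 1 to 3 falling genes of parallel modules (3). TPM holds no depth, so no limit from it is given.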
